A study of Mus musculus with 36 samples.

Results

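The 10 genes described here are markers of the thalamus and the habenula, brain regions that lie under and beside the hippocampus. They are Prkcd, Tcf7l2, Lef1, Slc17a6, Tnnt1, Ramp3, Rgs16, Gpr151, Pou4f1 and Nwd2. They were taken as a fixed list of symbols, 10 of the 50559 genes in the count table, and were followed through all 36 libraries as a readout of RNA from tissue that borders a dissected hippocampus. All 10 had enough counts to be tested, among 25382 tested genes.

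The study measured messenger RNA in bulk hippocampus of C57BL/6 female mice aged 6 months, in 4 genotypes and 2 states. Every mouse carried Pvalb-Cre and 1 copy of the RiboTag allele, the wild type (WT) mice included, and only the input fraction, RNA of whole lysate from both hippocampi, was sequenced. APP mice carried the J9 transgene, human APP with the Swedish and Indiana mutations, Tau mice carried the PS19 transgene, human tau with P301S, and APP/Tau mice carried both. The J9 transgene is driven by a platelet-derived growth factor promoter and the PS19 transgene by the mouse prion promoter. Naive mice stayed in the home cage and trained mice swam in a water maze with a hidden platform for 5 days at 6 trials per day. They were given a probe test 24 hours later and were killed 2 hours after it. Every mouse had been handled on 3 days before. WT gave 6 naive and 5 trained libraries, APP 5 and 3, Tau 4 and 4, and APP/Tau 6 and 3. The labels number the samples without saying that they are separate mice, and the p-values here rest on the variation among libraries, technical variation included.

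Thalamic relay neurons signal with glutamate and, unlike the pyramidal cells of the hippocampus, load it into vesicles mainly with the transporter made by Slc17a6. Their identity is kept by the transcription factor Tcf7l2, which with Lef1 belongs to the TCF/LEF family at the nuclear end of the Wnt pathway. The medial habenula, a small nucleus at the dorsal edge of the thalamus, is marked by the POU factor Pou4f1 and by the orphan receptor Gpr151, and its neurons use acetylcholine as well as glutamate.

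TCF/LEF factors bind a short core, CTTTGA on one strand and TCAAAG on the other, so the promoters of the markers are shown for the genes on which the results turn. For 9 of the 10 genes, promoters were taken from a RefSeq promoter table of GRCm38.p6, with 15 start sites between them. The 250 bases before each start were searched on both strands, and 3 of the 15 windows held the core, where 13.8% of all 32851 windows in the table did. The promoters of Tnnt1 and Rgs16, which moved together across libraries, and that of Nwd2, which stayed level, are given 5′ to 3′ with the core in capitals.
Tnnt1 (chr7:4515976-4516225, minus strand): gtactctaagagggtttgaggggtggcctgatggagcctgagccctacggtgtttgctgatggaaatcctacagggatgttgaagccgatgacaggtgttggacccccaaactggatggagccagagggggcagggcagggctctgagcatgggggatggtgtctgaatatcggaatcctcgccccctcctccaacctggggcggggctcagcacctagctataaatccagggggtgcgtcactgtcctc
Rgs16 (chr1:153740103-153740352, plus strand): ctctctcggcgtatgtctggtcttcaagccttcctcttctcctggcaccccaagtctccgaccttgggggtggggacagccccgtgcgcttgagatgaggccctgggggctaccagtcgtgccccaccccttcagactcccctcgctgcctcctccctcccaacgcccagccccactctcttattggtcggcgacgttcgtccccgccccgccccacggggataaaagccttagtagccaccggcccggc
Nwd2 (chr5:63648853-63649102, plus strand): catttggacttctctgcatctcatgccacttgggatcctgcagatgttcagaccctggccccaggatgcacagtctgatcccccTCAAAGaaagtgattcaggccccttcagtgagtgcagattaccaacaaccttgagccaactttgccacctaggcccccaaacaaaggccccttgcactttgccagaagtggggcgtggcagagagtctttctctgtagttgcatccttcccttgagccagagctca
The core stood once in the Nwd2 window, 166 bases before the start, and in neither of the windows of Tnnt1 and Rgs16. The other windows that held it belonged to Prkcd and Lef1, which also moved with Tnnt1 and Rgs16. It lay 139 bases before a start of Prkcd. Before a start of Lef1 it occurred 2 times, first at 180 bases. Other windows of Prkcd and Lef1 lacked it. These are matches of letters in these windows only.

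Library totals ran from 69.2 to 124.8 M counts (M for mega, median 85.4). The tau label was checked by Prnp, whose reads rise with the prion promoter transgene. It stood at 1423 to 2142 CPM (counts per M of the scaled library total) in 16 libraries labelled with tau and at 728 to 879 CPM in the 19 without it. Prnp was at 846 CPM in the library labelled Tau trained replicate 4, which goes against that label. Among the 10 genes, 2 libraries stood apart from the other 34 in the ratio of Tcf7l2 to Tnnt1 counts. These were WT trained replicate 4, at 18.6, and APP/Tau trained replicate 3, at 29.2, and the ratio ran from 2.03 to 15.2 in the rest. The 15.2 was that of the library labelled Tau trained replicate 4, from 21 Tnnt1 counts, and the next was 8.39 in APP/Tau trained replicate 1. Where leaving out any of these 3 libraries ended a call of the 10 genes, the value without it is given. The same holds where it turned the direction of a difference with an unadjusted p under 0.05. Differences with a larger p could also turn direction without one of these libraries, and those are not listed.

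The thalamic genes varied together from library to library, and most of that spread lay inside the groups. Tnnt1, the slow skeletal isoform of troponin T and a marker of thalamic relay neurons in brain, ranged from 0.310 to 12.6 CPM, or 40.7 times, over 21 to 1335 counts. In WT naive libraries it ran from 0.770 to 12.6 CPM with a median of 2.74. In APP/Tau naive libraries it ran from 0.933 to 4.53 CPM with a median of 1.92. In APP naive libraries it stood at 0.962, 9.04, 4.57, 1.84 and 1.39 CPM, and in Tau naive libraries at 11.1, 7.17, 1.29 and 3.60 CPM. Each naive group thus held both high and low libraries. The trained libraries were at 0.798, 1.92, 0.708, 2.18 and 1.11 CPM in WT, at 0.934, 2.02 and 5.19 CPM in APP and at 0.739, 1.44 and 1.59 CPM in APP/Tau. In Tau trained libraries it stood at 1.06, 1.13 and 1.11 CPM, with 0.310 CPM in the library labelled Tau trained replicate 4. Of the trained libraries, APP trained replicate 3 was the highest. In bulk tissue, fewer cells of a type and less RNA per cell cannot be told apart.

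Tcf7l2 ranged from 3.94 to 46.4 CPM. In WT naive libraries it ran from 4.60 to 29.2 CPM (median 16.8) and in APP/Tau naive libraries from 6.39 to 17.3 CPM (median 9.90). In APP naive libraries it stood at 5.87, 34.6, 12.6, 8.52 and 5.03 CPM and in Tau naive libraries at 22.5, 33.6, 6.43 and 22.4 CPM. The same libraries that were high in Tnnt1 were high here. Among trained libraries, WT stood at 5.30, 8.68, 4.96, 40.6 and 3.94 CPM, APP at 4.60, 5.04 and 15.3 CPM, and APP/Tau at 6.20, 6.04 and 46.4 CPM. Tau trained libraries stood at 4.30, 5.16 and 4.75 CPM, with 4.70 CPM in the library labelled Tau trained replicate 4. The highest levels, 40.6 and 46.4 CPM, belonged to WT trained replicate 4 and APP/Tau trained replicate 3, where Tnnt1 was at 2.18 and 1.59 CPM.

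The other TCF/LEF factor, Lef1, ranged from 1.55 CPM in WT trained replicate 5 to 11.6 CPM in APP naive replicate 2. The transporter gene Slc17a6 ranged from 14.1 CPM in APP naive replicate 4 to 121 CPM in APP/Tau trained replicate 3, with 68.5 CPM in WT trained replicate 4 next. Prkcd, which encodes a protein kinase C that answers to diacylglycerol, ran from 13.3 to 82.0 CPM over 21 naive libraries (median 38.0) and from 14.2 to 39.5 CPM over 15 trained libraries (median 22.6).

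Ramp3 encodes a membrane partner of the calcitonin-like receptors. It ran from 2.63 to 13.7 CPM in naive (median 5.22) and from 2.00 to 5.26 CPM in trained libraries (median 3.32). Rgs16 encodes a GTPase-activating protein that shortens G protein signalling. It ran from 7.30 to 29.2 CPM in naive (median 12.1) and from 5.91 to 13.4 CPM in trained libraries (median 8.23). For Prkcd, Ramp3 and Rgs16 the naive and trained ranges overlapped, and the highest trained library was below the highest naive ones.

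**Figure D1:**
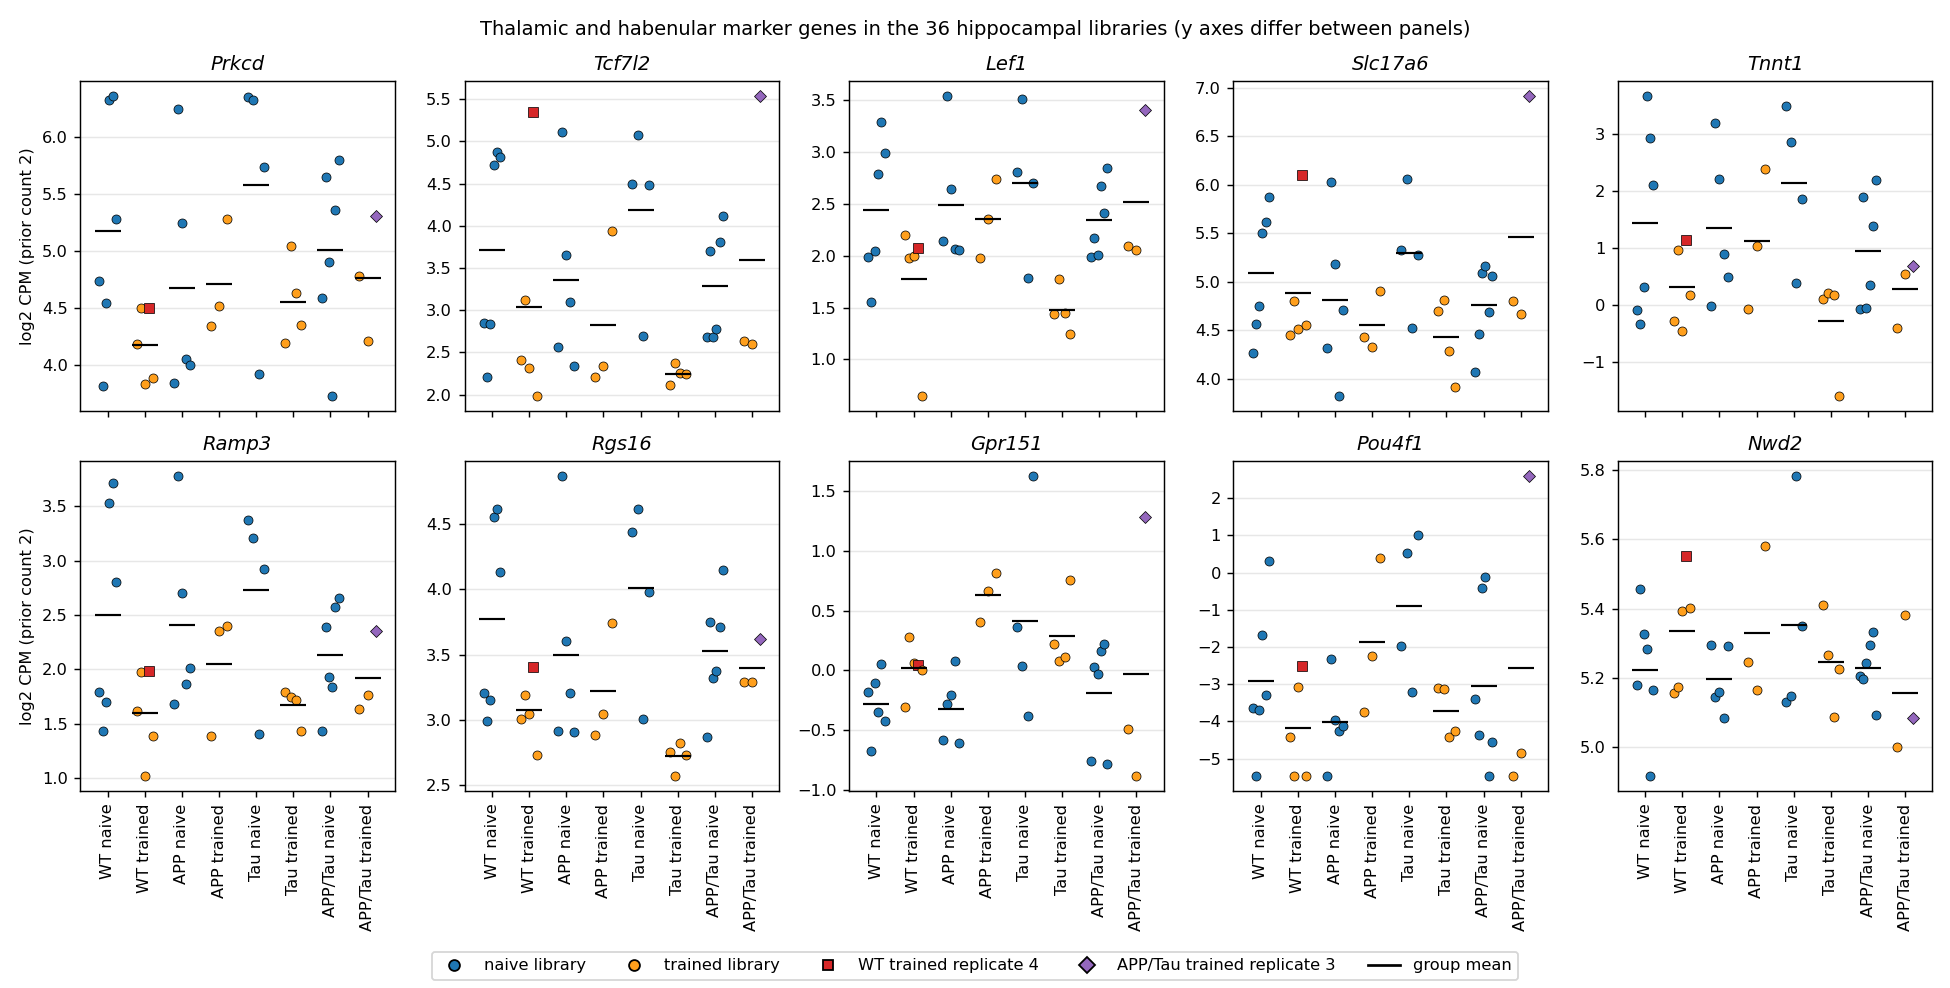
Level of each of the 10 genes in each library, as log2 CPM with a prior count of 2 (y axes, which differ between panels), by group (x axis). Points are libraries and bars are group means. Prkcd, Tnnt1, Ramp3 and Rgs16 reached their highest values in naive libraries, while Tcf7l2 and Slc17a6 reached theirs in WT trained replicate 4 (square) and APP/Tau trained replicate 3 (diamond).

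The habenular members Pou4f1 and Gpr151 were scarce. Pou4f1 had no count in 6 of 36 libraries, which at 3 counts allows a level of up to 0.0309 to 0.0431 CPM there, and its median was 0.0650 CPM. In WT naive libraries it ran from 0 to 1.22 CPM (median 0.0688) and in APP/Tau naive libraries from 0 to 0.902 CPM (median 0.0495). In Tau naive libraries it stood at 0.232, 1.43, 0.0857 and 1.99 CPM and in APP naive libraries at 0, 0.178, 0.0412, 0.0295 and 0.0353 CPM. These groups overlapped, and most of their libraries were near 0. In trained libraries it stood at 0.0242, 0, 0.0953, 0.154 and 0 CPM in WT, at 0.0525, 0.187 and 1.29 CPM in APP and at 0, 0.0121 and 6.02 CPM in APP/Tau. Tau trained libraries stood at 0.0943, 0.0907 and 0.0241 CPM, with 0.0295 CPM in the library labelled Tau trained replicate 4. The 6.02 CPM of APP/Tau trained replicate 3, from 458 counts, was the highest. Its relatives Pou4f2 (3.32 CPM, no count in 22 libraries) and Pou4f3 (0.263 CPM, no count in 29) were also highest in that library. Whether this peak came from the habenula was not tested.

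Gpr151 ranged from 0.519 to 3.06 CPM over 43 to 279 counts. In most libraries it lay close to its median of 1.00 CPM, and the highest were Tau naive replicate 4 at 3.06 CPM and APP/Tau trained replicate 3 at 2.42 CPM. Trained APP libraries stood at 1.30, 1.56 and 1.74 CPM, above the naive APP libraries at 0.646, 0.800, 0.844, 1.03 and 0.635 CPM, with no overlap. Of all tested genes, 1.36% were higher in trained than in naive APP libraries with no overlap.

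Nwd2 was nearly level across the libraries. The gene encodes a protein with NACHT and WD repeat domains, and it stayed between 30.2 and 55.0 CPM, or 1.82 times, with similar medians of 36.8 CPM in naive and 37.9 CPM in trained libraries. The highest, 55.0 CPM, was Tau naive replicate 3, which was the lowest of the 4 Tau naive libraries in Tnnt1, Tcf7l2 and Prkcd.

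The spread within groups was measured as the SD of log2 CPM about the group means. It was 2.07 for Pou4f1, above 99.8% of tested genes, 1.19 for Tnnt1 (98.5%), 1.08 for Tcf7l2 (97.5%) and 0.81 for Prkcd. For Ramp3, Slc17a6, Lef1, Rgs16 and Gpr151 it lay between 0.51 and 0.68, and for Nwd2 it was 0.17, above 38.7% of tested genes. The median over the 10 genes was 0.68, against 0.25 over all tested genes and 0.15 over the 16367 tested genes whose log2 CPM averaged 0 or more. Differences between groups took 14.5% of the variance of Nwd2, 30.4% of that of Tnnt1 and 35.5% of that of Lef1. The 10 genes were proposed with earlier results of these data known, so these values describe them and test nothing.

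Within libraries, 7 genes moved as a set. Prkcd, Tcf7l2, Lef1, Slc17a6, Tnnt1, Ramp3 and Rgs16 gave 21 pairs, with Pearson r of log2 CPM over 36 libraries from 0.59 to 0.93 (median 0.81) and Spearman rho from 0.57 to 0.90. In permutation tests (two-sided, 100000 permutations, Benjamini-Hochberg over all 45 pairs of the 10 genes), the largest adjusted p among these 21 was 0.00045 for r and 0.000729 for rho. The 10 genes were proposed with earlier results of these data known, and the 7 were singled out among them. These p-values therefore describe the set and are no independent test of it. Without the 2 libraries farthest from the median of the first gene, r ran from 0.57 to 0.97, and with the group means taken away from 0.62 to 0.94. Within the 21 naive libraries r ran from 0.70 to 0.97 and within the 15 trained libraries from 0.43 to 0.92, so every pair was positive in each state.

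The tightest pair was Tnnt1 with Ramp3, at r of 0.93 and rho of 0.90 (permutation, adjusted p of 2.65e-05 for each, from the smallest p these permutations can give), with 0.91 without the 2 farthest libraries. Ramp3 with Rgs16 stood at r of 0.93 and rho of 0.85. Tcf7l2 and Tnnt1 stood at r of 0.79, which became 0.91 without WT trained replicate 4 and APP/Tau trained replicate 3. Slc17a6 and Prkcd stood at r of 0.59, which became 0.71 without those 2 libraries.

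**Figure D2:**
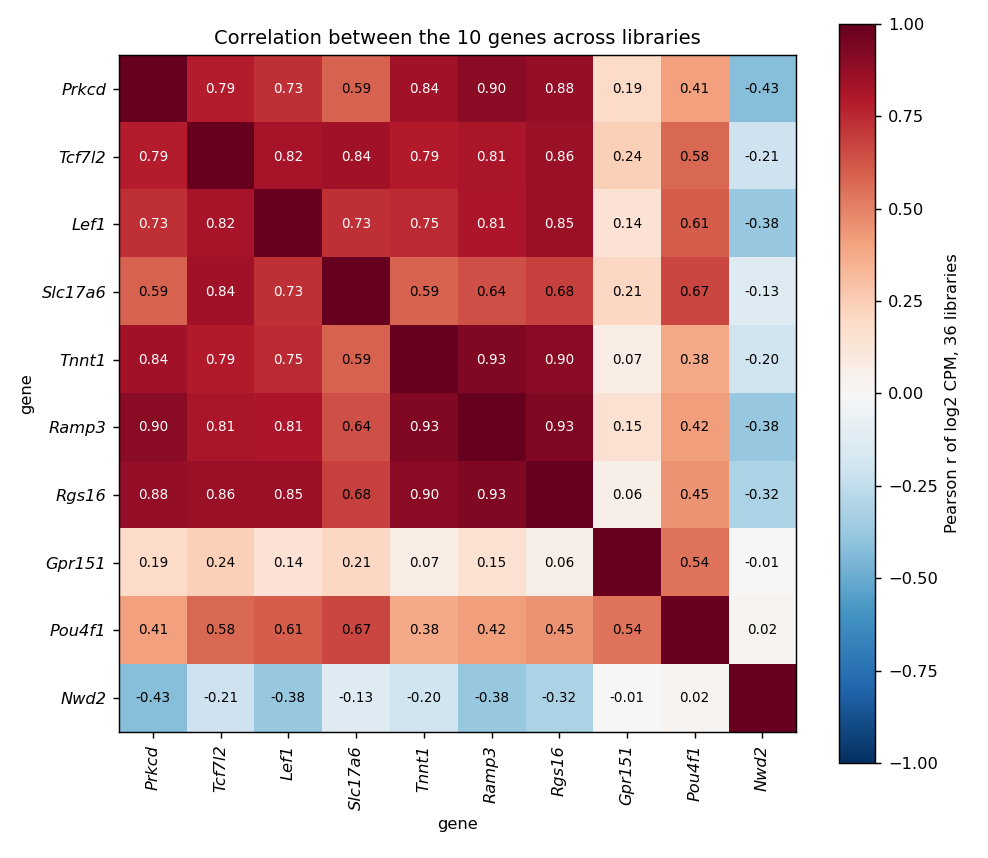
Pearson r of log2 CPM over 36 libraries for each pair of the 10 genes (colour and printed value). The 7 thalamic genes from Prkcd to Rgs16 form a block with r from 0.59 to 0.93, Pou4f1 is linked to them less tightly, and Gpr151 and Nwd2 lie outside it.

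The rest of the list split from that set. Pou4f1 passed the permutation test with 8 of the other 9 genes, at r from 0.38 with Tnnt1 to 0.67 with Slc17a6 among those that passed. Gpr151 passed with Pou4f1 alone, at r of 0.54 (adjusted permutation p = 0.00142) and rho of 0.38 (adjusted permutation p = 0.0361). That r fell to 0.29 without the 2 farthest libraries, so it rests in part on those libraries. It was 0.50 in naive and 0.73 in trained libraries, and 0.44 without WT trained replicate 4 and APP/Tau trained replicate 3. Nwd2 had r from -0.43 to 0.02 with the other genes and passed in 3 of 9 pairs, all negative, with Prkcd, Lef1 and Ramp3. Its r with Prkcd was -0.43 over all libraries (adjusted permutation p = 0.0141), -0.53 in naive and -0.19 in trained libraries.

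Named by rank, 5 libraries were among the 9 highest of 36 for all 7 thalamic genes, namely APP naive replicate 2, WT naive replicates 4 and 5, and 2 Tau naive libraries (replicates 1 and 2). WT naive replicate 6 was among them for 6 of 7 genes, and APP/Tau naive replicate 6 and Tau naive replicate 4 for 5 of 7. These 8 libraries were all naive and came from 4 genotypes, and 22 libraries were among the 9 highest for none of the 7 genes. This ranking describes single libraries and was not used to form groups.

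**Figure D3:**
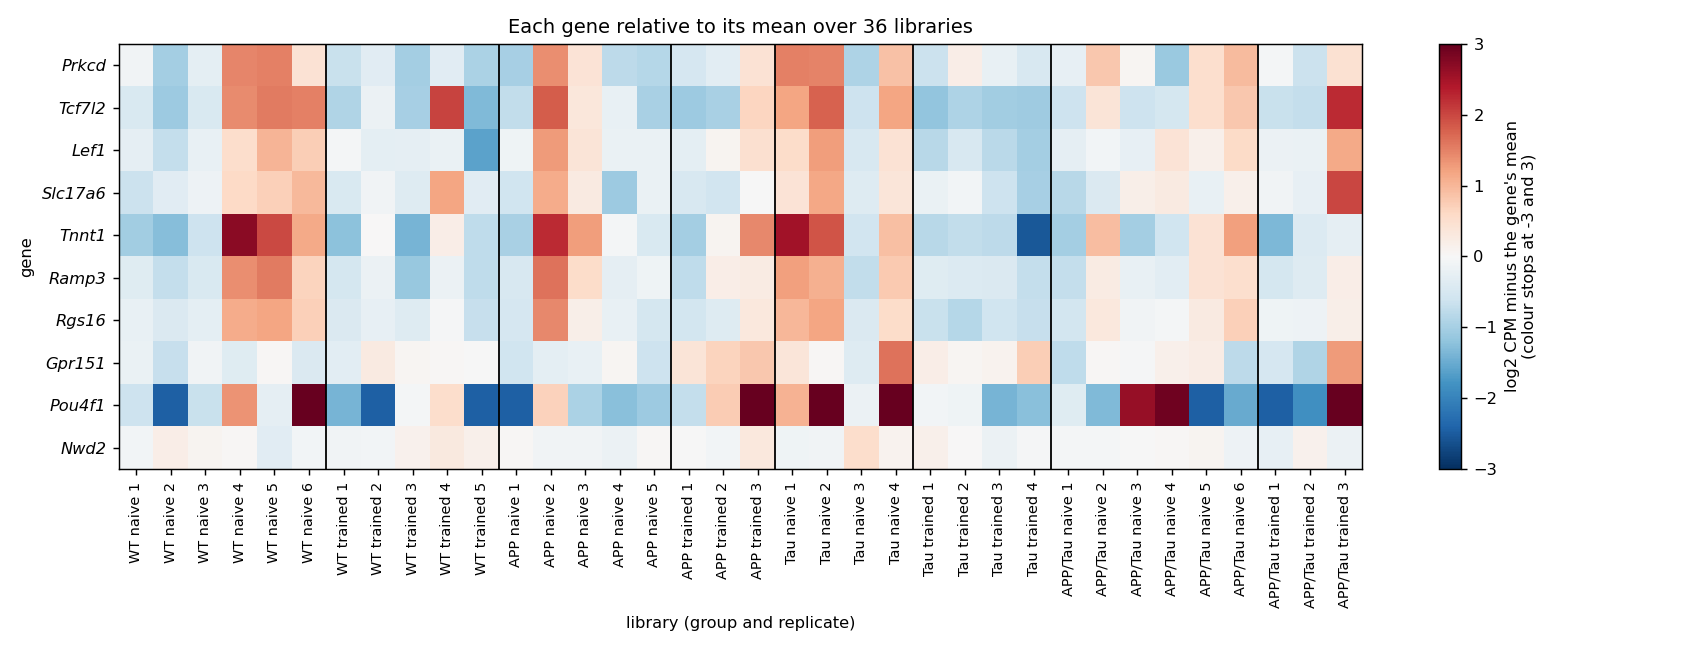
Each gene's log2 CPM minus its mean over 36 libraries (colour), with libraries in columns by group and genes in rows. Single columns such as WT naive 4 and 5, APP naive 2 and Tau naive 1 and 2 are red through the 7 upper rows, and libraries with no Pou4f1 count are placed by the prior count of 2.

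The pair of libraries that stood apart carried other genes with them. In WT trained replicate 4, Tcf7l2 (40.6 CPM) and Slc17a6 (68.5 CPM) were high, while Prkcd (22.6 CPM), Lef1 (4.18 CPM) and Rgs16 (10.6 CPM) were not. The 11 striatal markers summed to 746 CPM there, against 170 to 244 CPM in the other libraries, and all 11 were highest in that library. The cholinergic gene Chat stood at 5.93 CPM there, against at most 1.75 CPM elsewhere.

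In APP/Tau trained replicate 3, Slc17a6 (121 CPM), Tcf7l2 (46.4 CPM) and Pou4f1 (6.02 CPM) were the highest of all libraries and Lef1 (10.5 CPM) was the third. Prkcd (39.5 CPM), Ramp3 (5.10 CPM), Rgs16 (12.2 CPM) and Tnnt1 (1.59 CPM) were not among the 9 highest. Some of the other thalamic and habenular genes read further below also peaked in this library, and the rest of them peaked elsewhere. The thalamic ones were Gbx2, Zic1, Zic4, Calb2 and Lhx9. Gbx2 stood at 4.12 CPM against a median of 0.125 CPM over all libraries, and Zic1 at 103.8 against 22.1 CPM. The habenular ones were Chrna3, at 5.11 CPM against a median of 1.46 CPM, Chrnb4 and Lrrc55. Genes named after their values were seen were also highest there, among them Glra1, a glycine receptor subunit, at 6.74 CPM against at most 2.23 CPM elsewhere, Gata3 at 6.65 against at most 3.14 CPM, and Slc6a5, a glycine transporter, at 2.90 against at most 0.890 CPM. The ratio of Slc17a6 to Prkcd counts was 3.03 and 3.05 in these 2 libraries, against 0.439 to 2.70 in the others. The part of striatal or other neighbouring tissue in these values was not tested.

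**Figure D4:**
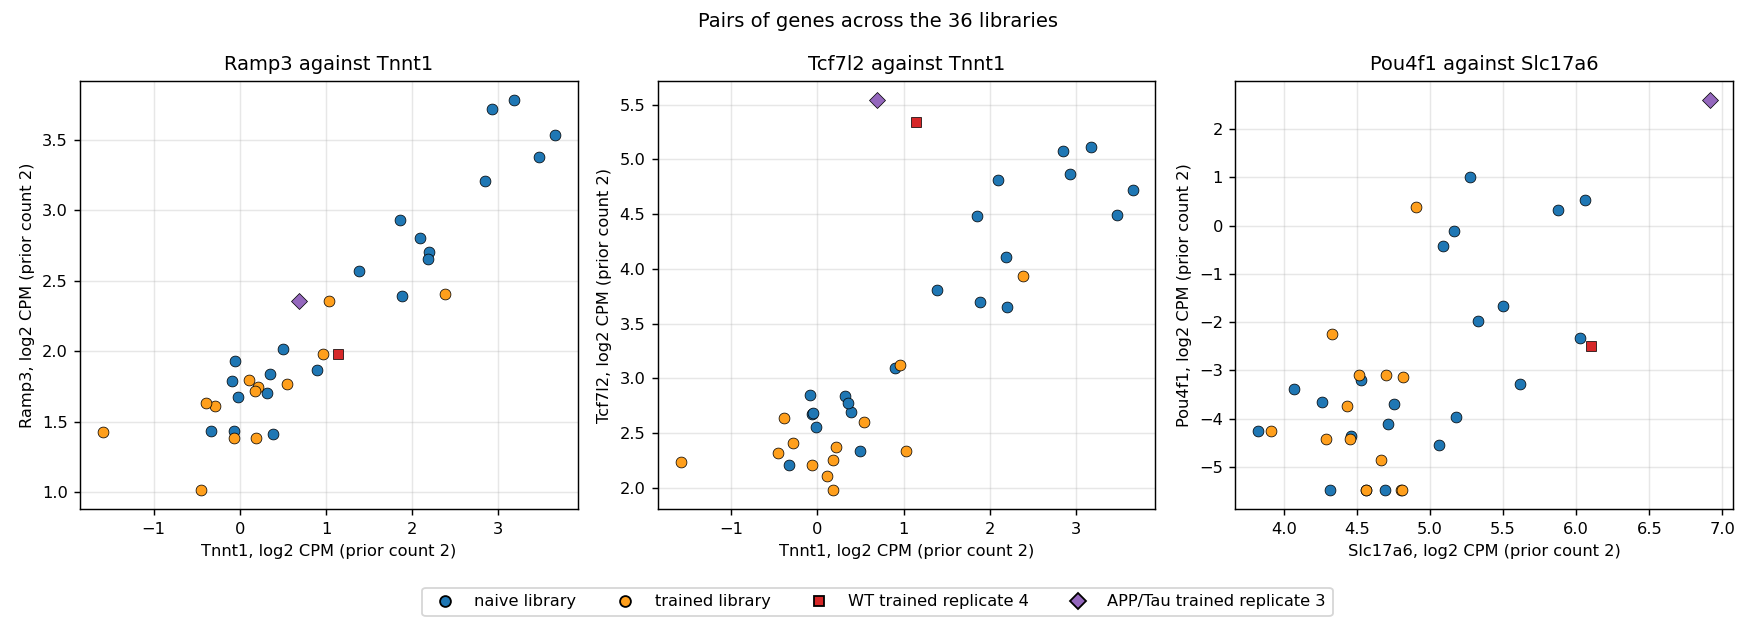
Pairs of genes over 36 libraries, as log2 CPM with a prior count of 2 on both axes, naive in blue and trained in orange. Ramp3 follows Tnnt1 in all libraries (r of 0.93), whereas WT trained replicate 4 (square) and APP/Tau trained replicate 3 (diamond) lie above the other points for Tcf7l2 against Tnnt1, and APP/Tau trained replicate 3 is highest in both Slc17a6 and Pou4f1.

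Genotype was compared with WT in each state with edgeR's quasi-likelihood test, adjusted by Benjamini-Hochberg over all tested genes. In naive mice 0 of the 10 genes passed in APP, in Tau and in APP/Tau, where 0.0355%, 0.0276% and 0.0670% of all tested genes passed. In trained mice 0 of 10 passed in each, against 0.0276%, 0.303% and 0.0552% of all tested genes. DESeq2 and limma-voom also called 0 of 10 in all 6 comparisons, and their shares of all tested genes are not given here. DESeq2 gave Pou4f1 no adjusted p in trained APP/Tau against WT.

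At an unadjusted edgeR p under 0.05 the counts were 0, 1 and 0 of 10 in naive and 0, 0 and 1 of 10 in trained APP, Tau and APP/Tau. The shares of all tested genes at that level were 3.68%, 9.31% and 7.48% in naive and 5.84%, 15.2% and 10.2% in trained mice. The naive one was Gpr151, higher in Tau by 0.91 on the log2 scale (SE 0.32, adjusted p = 0.412 by edgeR), and its difference was 0.30 without Tau naive replicate 4. The trained one was Pou4f1, at 5.16 (SE 1.38, adjusted p = 0.174 by edgeR) in APP/Tau against WT. Without APP/Tau trained replicate 3 that difference was -2.86, so its direction rests on 1 library.

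The intervals of these comparisons were wide for the thalamic genes. For Tnnt1, naive APP/Tau against WT gave -1.05 with a 95% interval from -2.32 to 0.21, and trained Tau against WT gave -0.53 with an interval from -2.65 to 1.59, or -0.29 without the library labelled Tau trained replicate 4. For Nwd2 the estimates in the 6 comparisons lay between -0.18 and 0.15. The median over the 10 genes ran from -0.34 in naive APP/Tau to 0.52 in trained APP, with a median over all tested genes between -0.01 and 0.01. Trained APP libraries lay above trained WT ones with no overlap for 1 of 10 genes, Gpr151, and for 1.24% of all tested genes. The Gpr151 difference was 0.63 (SE 0.35, adjusted p = 0.852 by edgeR).

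Trained against naive mice was compared within each genotype. By edgeR 0 of 10 genes passed in WT, APP, Tau and APP/Tau, and 0% of all tested genes passed. In WT, 5 of 10 genes had an unadjusted p under 0.05, all lower in trained mice, where 5.85% of all tested genes had one. They were Tnnt1 at -1.80 (SE 0.73), Prkcd at -1.26 (SE 0.49), Ramp3 at -1.16 (SE 0.42), Rgs16 at -0.85 (SE 0.34) and Lef1 at -0.73 (SE 0.35), with an adjusted p of 0.845 for each by edgeR. The WT trained levels of these genes lay within the range of the WT naive ones, or reached into it, so the groups overlapped. DESeq2 called 0 of 10 in WT with 5 at an unadjusted p under 0.05, and limma-voom called 0 with 0 at that level. The share of all tested genes at that level was computed for edgeR only, so these counts have no share beside them.

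In Tau mice 7 of 10 genes had an unadjusted edgeR p under 0.05, all lower in trained mice, where 14.6% of all tested genes had one. They were Pou4f1 at -3.88 (SE 1.56), Tnnt1 at -2.63 (SE 0.88), Tcf7l2 at -2.17 (SE 0.83), Rgs16 at -1.41 (SE 0.41), Lef1 at -1.34 (SE 0.41), Prkcd at -1.25 (SE 0.56) and Ramp3 at -1.22 (SE 0.48). The smallest adjusted p was 0.118, for Rgs16 by edgeR. The median over the 10 genes was -1.29, and over all tested genes -0.01.

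Rgs16 stood at 21.6, 24.5, 8.0 and 15.8 CPM in Tau naive libraries and at 6.72, 5.91, 7.06 and 6.62 CPM in Tau trained ones, the last being the library labelled Tau trained replicate 4. Lef1 stood at 6.95, 11.4, 3.42 and 6.46 CPM in naive and at 2.69, 3.40, 2.71 and 2.34 CPM in trained libraries in the same order. For these 2 genes and for Tnnt1 and Tcf7l2 every Tau trained library was below every Tau naive one, 4 of 10 genes, where 5.07% of all tested genes were that way. Tau naive replicate 3 was the lowest naive library for each of them, and for Lef1 it was barely above the highest trained one.

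Other tests did call members here. DESeq2 called 2 of 10, Rgs16 (adjusted p = 0.0348) and Tnnt1 (adjusted p = 0.0410), where it called 1.43% of all tested genes. Limma-voom called 2 of 10, Rgs16 (adjusted p = 0.0368) and Lef1 (adjusted p = 0.0448), where it called 3.28%. Without the library labelled Tau trained replicate 4, the edgeR differences were -1.41 for Rgs16, -2.40 for Tnnt1, -1.27 for Lef1 and -2.17 for Tcf7l2. DESeq2 and limma-voom then called 0 of 10, where they called 0.362% and 2.54% of all tested genes, and Rgs16 had the smallest adjusted p by each (0.0859 by DESeq2 and 0.0573 by limma-voom). The calls above were made with that library included.

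The Tau trained libraries also differed from the Tau naive ones in other measures. Their library numbers in the labels ran from 3 to 9, and those of Tau naive libraries from 11 to 36, so the order of the libraries and training cannot be told apart in these groups. With the library number as a covariate across all groups, the difference was -0.18 for Pou4f1, -1.12 for Tcf7l2, -2.34 for Tnnt1, -1.11 for Rgs16 and -0.93 for Lef1. Over all 36 libraries 5 of 10 genes were correlated with the library number, each at an adjusted permutation p of 0.02 by r, and the same 5 passed by rho. Tnnt1 had r of 0.47 and rho of 0.56 (adjusted permutation p = 0.004), with r of 0.20 in naive and 0.60 in trained libraries. The r was 0.44 for Rgs16 (0.18 in naive and 0.49 in trained libraries), 0.43 for Tcf7l2 (0.26 and 0.40), 0.43 for Lef1 (0.34 and 0.20) and 0.42 for Ramp3 (0.21 and 0.39). The 15 choroid plexus markers summed to 1482 to 4059 CPM in Tau naive and 104 to 636 CPM in Tau trained libraries, and all 15 had an unadjusted p under 0.05 and were lower in trained mice, with none called after adjustment by edgeR. The 10 markers of hippocampal pyramidal and granule cells had a median difference of 0.31, with 7 higher at an unadjusted p under 0.05. Of all tested genes, 14.6% had such a p in this comparison, in either direction. The part of these measures in the thalamic values was not tested.

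In APP mice 1 of 10 genes had an unadjusted p under 0.05, Gpr151, higher in trained mice at 0.94 (SE 0.36, adjusted p = 0.925 by edgeR), where 5.24% of all tested genes had one and 1.36% were higher with no overlap. The 7 thalamic genes lay between -0.64 and -0.20, each with an interval that spans 0. In APP/Tau mice, 2 of 10 had an unadjusted p under 0.05, Slc17a6 at 1.04 (SE 0.47) and Pou4f1 at 2.53 (SE 0.89), where 3.07% of all tested genes had one. Without APP/Tau trained replicate 3 these were -0.08 and -5.49, so their direction rests on that library. DESeq2 and limma-voom called 0 of 10 in both genotypes, with 1 and 1 at an unadjusted p under 0.05 in APP and 1 and 0 in APP/Tau. For these counts too the share of all tested genes was not computed.

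**Figure D5:**
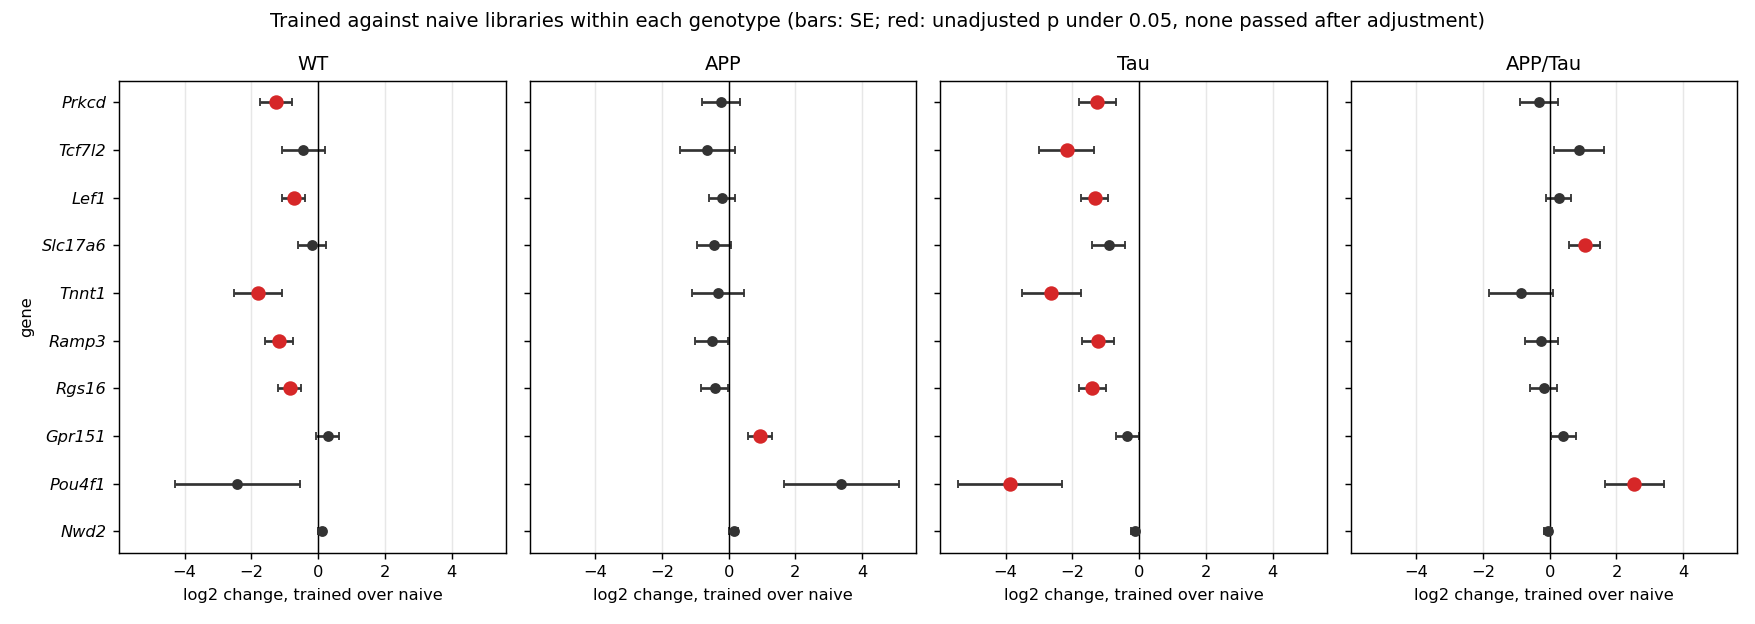
Log2 change of each gene in trained over naive mice (x axis, edgeR) within each of 4 genotypes, with bars for the SE and red points for an unadjusted p under 0.05. The 7 thalamic genes are below 0 in WT, APP and Tau, and 0 of 10 genes passed after adjustment in each panel.

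Whether the change with training differed between genotypes was tested as an interaction against WT. By edgeR 0 of 10 genes passed for APP, Tau and APP/Tau, and 0% of all tested genes did. At an unadjusted p under 0.05 the counts were 1, 0 and 1 of 10, both Pou4f1, against 2.67%, 9.04% and 4.14% of all tested genes. DESeq2 had 1, 0 and 1 at that level, limma-voom 0 in each, and both called 0. Shares of all tested genes at that level were not computed for DESeq2 and limma-voom. The lower thalamic values of trained Tau mice were therefore not shown to differ from those in WT. For Tcf7l2, which had the smallest adjusted p of the Tau interaction, that p was 0.621. The APP/Tau value of Pou4f1, 4.95, was -3.07 without APP/Tau trained replicate 3.

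Non-additivity, the APP/Tau difference minus the sum of the APP and Tau differences, gave 0 of 10 by edgeR in naive mice (0% of all tested genes) and 0 of 10 in trained mice (0.0118%). At an unadjusted p under 0.05 there were 0 of 10 in naive (7.13% of tested genes) and 2 of 10 in trained mice (9.39%), Tcf7l2 at 2.61 (SE 1.21) and Slc17a6 at 1.84 (SE 0.73). Both of the libraries that stood apart enter this contrast, and without them the values were -0.22 and 0.26. DESeq2 gave no adjusted p to any of the 10 genes in trained mice and called 0 in naive mice, and limma-voom called 0 in both.

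Genes outside the list were read against Prkcd, Gpr151 and Pou4f1 over the 36 libraries, Pou4f1 having been added after its values were seen. The family held 174 relations, with Benjamini-Hochberg adjustment. The lists were proposed with earlier results of these data known, so the counts that passed describe the lists and are no independent test. The share of all tested genes that would pass was not computed. Of 17 other thalamic genes, 15 followed Prkcd by r (median 0.77) and 13 by rho, against a median r of -0.03 over all tested genes. Synpo2 (r of 0.89) and Plekhg1 (0.89) followed it most closely. Gbx2, a homeobox gene of the developing thalamus, followed it at r of 0.76 and had no count in 2 libraries. Of 12 other habenular genes, 2 followed Prkcd, the nicotinic receptor subunits Chrna3 (0.45) and Chrnb3 (0.64).

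Pou4f1 was followed by 12 of 17 thalamic genes and 7 of 12 habenular genes by r, and by 9 of 17 and 7 of 12 by rho. Its closest was Chrna3 at r of 0.84 and rho of 0.70 (adjusted permutation p of 0.000124 and 0.000174), with 0.78 without the 2 farthest libraries. Gpr151 was followed by 2 thalamic genes and 2 habenular genes upward and 1 habenular gene downward by r, and by none of these by rho. Tac2 and Gng8, textbook genes of the medial habenula, reached at most 4.37 and 1.65 CPM, and Chat and Slc18a3 had no count in 1 library each. Others on that list were well counted, with lowest levels of 116 CPM for Pcdh10, 46.4 for Nr4a2, 13.3 for Lrrc55 and 5.40 for Kctd8. The habenular members Pou4f1 and Gpr151 had as few as 0 and 43 counts, so they rest on few counts in these libraries. Of the thalamic members, Prkcd, Tcf7l2 and Slc17a6 had at least 1000, 319 and 1021 counts in every library. Tnnt1 had as few as 21.

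Among all 13612 candidate genes, those closest to Prkcd were Rab37 (r of 0.92), Synpo2 (0.89), Plekhg1 (0.89), Cacna2d4 (0.87), Vav3 (0.86), Vipr2 (0.85), Slitrk6 (0.85) and Nexn (0.84). Synpo2, Plekhg1 and Slitrk6 were on the list of other thalamic genes. Those closest to Gpr151 had r of only 0.50 to 0.53, namely Cnnm2, Igfbpl1, Aco1, Ano1, Lratd2, Usp51, Igsf3 and Erlec1.

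Of 12 TCF and Wnt pathway genes, 3 followed Prkcd by r, which were Nkd1 (0.63), Notum (0.42) and Rnf43 (0.45), and 2 by rho, and the median r was 0.20. Their relations with Tcf7l2 and Lef1 were not run. By edgeR 0 of 12 passed in each of the 15 contrasts. In trained against naive Tau mice 3 of 12 were lower at an unadjusted p under 0.05, with a list median of -0.11. In that comparison 14.6% of all tested genes had such a p, in either direction. The other thalamic genes gave 0 of 17 called in each contrast and 14 of 17 lower at that level in Tau, with a median of -0.76. The other habenular genes gave 0 of 12 called in each contrast and 3 of 12 lower in Tau, with a median of -0.44. Of the 17 tested relatives of the members, such as Slc17a7 and Ramp2, 0 passed in each contrast. In trained against naive Tau mice 5 of these 17 were higher at an unadjusted p under 0.05, and 0 were lower.

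Markers of other tissues were compared with each of the 10 genes, in 80 relations. The summed choroid plexus markers were correlated with Tnnt1 (r of 0.54, adjusted permutation p = 0.0253), Lef1 (0.49, adjusted permutation p = 0.0482) and Ramp3 (0.48, adjusted permutation p = 0.0482). The endothelial markers were correlated with Lef1 alone, at r of 0.63 (adjusted permutation p = 0.0024), which was 0.43 without the 2 farthest libraries. WT trained replicate 5, the lowest library for Lef1, was also the lowest for the endothelial markers, at a summed 66.7 CPM. The markers of hippocampal pyramidal and granule cells were correlated negatively with Slc17a6, at r of -0.53 (adjusted permutation p = 0.0253), which was -0.40 without the 2 farthest libraries. Each of these 5 relations also passed by rho, at an adjusted permutation p of 0.0353. Another 4 relations passed by rho and not by r. The hippocampal markers were correlated negatively with Lef1 (rho of -0.50, adjusted permutation p = 0.0353) and Tcf7l2 (rho of -0.48, adjusted permutation p = 0.0365), with r of -0.42 and -0.45. Prkcd was correlated with the markers of newly formed oligodendrocytes (rho of 0.50) and of mature ones (rho of 0.48), each at an adjusted permutation p of 0.0353, with r of 0.37 and 0.45. The part of these tissues in the members' values was not tested.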

How the data were processed

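For 36 libraries the deposited values were whole-number gene counts with no scaling by the authors. Trimming with Trimmomatic 0.39 and the build mm39 come from the submitters' processing notes. Aligner, counter, annotation and strand use are not given in the sources. Even numbers made up 54.7% of counts of 1 to 10, so small counts may be less precise than they look. No pair of libraries in a group (68 pairs) was identical or within sampling noise.

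Counts were analysed with edgeR 4.0.16 in R 4.3.3. TMM scaling, filterByExpr by group (minimum count 10, minimum total 15), 1 mean per group over all 36 libraries, glmQLFit with robust estimation and 15 contrasts were used, at an adjusted p of 0.05. The test was run on simulated data first. CPM and log2 CPM (prior count 2) use TMM-scaled totals. The replicate numbers did not pair libraries, as same-numbered libraries had a median correlation of -0.04 between deviations.

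The alternatives were RLE scaling, testing without a filter, a replicate block, library number as a covariate, only the groups compared, DESeq2 1.42.0, limma-voom with quality weights (limma 3.58.1) and leaving out each library. Leaving out the 2 libraries that stood apart was chosen after seeing the data. The members and lists were chosen with earlier results of these data known. The named genes were all members, list genes passing over all genes, and the 8 genes closest to Prkcd and to Gpr151 whose log2 CPM averaged 0 or more. Of the marker lists (choroid plexus, striatum, cortex, hippocampal neurons, oligodendrocytes, endothelium, microglia), 1 gene passed in any contrast, Enpp6 of newly formed oligodendrocytes in trained Tau against WT at 0.99 (adjusted p = 0.0242 by edgeR). The promoter of Gpr151 was not used here.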

Additional observations from a re-analysis of the deposited data

Results flagged for a closer look

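In groups of 4 to 6 libraries, 9 of 60 gene and group sets held a library whose gap to the nearest other exceeded the critical value of Dixon's test, where chance sets apart about 1 in 20. The sets are not independent, since the genes share libraries. APP naive replicate 2 was far above its group for Tcf7l2 (34.6 CPM), Lef1 (11.6 CPM), Rgs16 (29.2 CPM) and Pou4f1 (0.178 CPM, from only 14 counts). WT trained replicate 4 was far above its group for Tcf7l2 (40.6 CPM) and Slc17a6 (68.5 CPM), with the high striatal markers given above. WT naive replicate 6 was far above its group for Pou4f1 (1.22 CPM). WT trained replicate 5 was far below its group for Lef1 (1.55 CPM). The library labelled Tau trained replicate 4 was far below its group for Tnnt1 (0.310 CPM), from 21 counts. APP/Tau trained replicate 3 belongs to a group of 3, which was not tested this way.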

How the results depend on the processing

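The count of members called stayed at 0 in all settings run for 14 of 15 contrasts, leaving out each library (0 to 0) included. In trained against naive Tau mice it was 2 by DESeq2 and 2 by limma-voom with quality weights, and 0 by each without Tau trained replicate 4, a setting chosen after seeing the data. With the replicate number as a block it was 0 in every contrast, and the block changed no member's call, with a median correlation of 0.61 and a median SD of 0.69. The numbers do not pair the libraries. Of 21 differences with an unadjusted p under 0.05, 16 kept their direction in all settings. Without APP/Tau trained replicate 3, Pou4f1 reversed to -2.86 in trained APP/Tau against WT, -5.49 with training in APP/Tau and -3.07 in its interaction, and Slc17a6 to -0.079 with training in APP/Tau. Without both that library and WT trained replicate 4, these were -1.93, -5.49, -2.14 and -0.079, and Tcf7l2 reversed to -0.22 in trained non-additivity. Leaving out 1 library at a time, these 5 values ran up to 6.09, 3.26, 5.88, 1.41 and, for Tcf7l2, 3.44. By limma-voom the training value of Pou4f1 in APP/Tau was -0.87, and the cause was not tested. The median correlation between members ran from 0.55 to 0.61 and the median SD from 0.64 to 0.69 when each library was left out, and the correlation was 0.77 without Nwd2 and Gpr151.

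Counts over all genes moved more. In trained Tau against WT, 77 genes passed, against 244 with library number, 230 with only the groups compared, 1351 by limma-voom, 538 by DESeq2 and 3 to 360 leaving out each library. With training in Tau, 0 passed, against 5, 290, 833 and 364, with 192 without Tau naive replicate 1 and 120 without the 2 libraries that stood apart. With only the groups compared, 9 of 10 members were tested in some contrasts. Groups of 3 to 6 libraries and the low counts of Pou4f1 and Gpr151 limit all differences given here.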

Other observations

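Genes of other regions also had single high libraries. Oxt was highest in WT naive replicate 4 (3.62 CPM, at most 1.55 elsewhere), and Pmch (4.28 CPM, at most 1.21 elsewhere) and Cbln3 (19.4 CPM, at most 6.42 elsewhere) in WT naive replicate 5. Both libraries were also among the 5 that ranked in the 9 highest for all 7 thalamic genes. These genes were chosen after their values were seen.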
